A study of Mus musculus with 18 samples.

Results

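Among the genes whose ribosome-bound mRNA differed between GLUT1 cKO and control astrocytes, 7 lie on chromosome 4, the chromosome of the floxed gene Slc2a1, which encodes the glucose transporter GLUT1. These are Cap1, Ppt1, Hdac1, Iqcc, Arhgef19, Rsg1 and Cfap206. An 8th gene, Gm10093, is listed by RefSeq as the pseudogene Hdac1-ps of chromosome 17 and was kept with them as a copy of Hdac1. The deposited counts cover 21923 genes, of which 13296 passed the filter on low counts, 786 of them on chromosome 4. All 8 described genes were selected on the comparison of cKO with control immunoprecipitates reported here. Their differences in that comparison are therefore given as a description, without a test. Not all of them lie close to Slc2a1. Cap1 and Ppt1 start 3.75 and 3.73 Mb from it, Hdac1 and Iqcc 10.4 and 10.5 Mb, Arhgef19 and Rsg1 both 22.1 Mb, and Cfap206 84.4 Mb on the other side.

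In translating ribosome affinity purification (TRAP), an antibody against EGFP captures tagged ribosomes and the mRNA on them, and the immunoprecipitated (IP) fraction is thus enriched for transcripts of the cells that carry the tag. The cKO mice were labelled GLUT1 flox/flox;GLAC +/wt and the control mice, titled WT, GLAC +/wt. According to the methods of the study, both carried GLASTCreERT2, a tamoxifen-inducible Cre under the promoter of the astrocyte gene Slc1a3, and both received tamoxifen and the same AAV of serotype PHP.eB, from which Cre turns on EGFPL10a under a human GFAP promoter. All mice were male, of strain C57BL/6, were given tamoxifen at 8 to 10 weeks of age, and their cortex was collected 60 days later. The controls carried wild-type Slc2a1. The deletion of GLUT1 in astrocytes and any sequence inherited together with the floxed allele therefore cannot be told apart in these libraries.

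The labels list 4 cKO and 5 control IP samples and an input sample of each, 18 in all, each pair of IP and input from 1 animal. Of these, 4 cKO IP libraries (numbered 1, 5, 9 and 17) and 3 control IP libraries (11, 15 and 19) could be tied to a genotype. The other 11 columns, which include every input library, were not analysed here, so whether these differences also appear in whole cortex was not tested. According to its methods, the study dropped 1 sample for its few reads, and IP samples that expressed neuronal genes highly. The methods do not say which libraries these were. Total estimated counts lay between 12570309 and 40734343 per library. The summed CPM (counts scaled to the library total) of 6 astrocyte markers was 11370 to 14506 in control and 11677 to 14527 in cKO, and that of 4 neuronal markers was 2140 to 2887 and 1866 to 2919. The neuronal sums are of IP libraries that the study kept, which limits how far they can differ. In cKO library 5 the 3 choroid plexus markers summed to 812 CPM, against 1.64 to 6.69 in the other 6 libraries. In bulk RNA, fewer cells of a type and less RNA per cell cannot be told apart.

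The targeted gene itself did not separate the groups. Slc2a1 (chr4:119108745-119137330, GRCm38.p6) had 61.7, 59.3 and 57.6 CPM in the control libraries and 61.9, 56.4, 59.4 and 58.3 CPM in the cKO libraries. These values overlap entirely, with a log2 fold change of -0.01 ± 0.12 (SE). The counts sum all exons of the gene and cannot be split by exon here. Why this sum did not differ between the groups was not tested. The study counted reads over single exons of Slc2a1 from a separate alignment, which was not analysed here, and the groups are named by their labels throughout.

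The 8 genes belong to unrelated processes. CAP1 binds actin monomers and works with cofilin in the turnover of actin filaments, and PPT1 is the lysosomal thioesterase that removes palmitate from proteins, whose loss causes an infantile form of neuronal ceroid lipofuscinosis. HDAC1 is a class I histone deacetylase and the catalytic subunit of the NuRD, Sin3 and CoREST complexes. ARHGEF19 is a guanine nucleotide exchange factor, RSG1 (Cplane2) is a GTPase-like protein of the planar cell polarity effector complex that acts in the assembly of cilia, and CFAP206 is a protein of the axoneme of motile cilia. IQCC carries an IQ motif, a sequence that in other proteins binds calmodulin.

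The promoters of 4 of them are shown. Cap1 and Ppt1 were chosen as neighbours that were both higher in cKO, and Rsg1 and Cfap206 as the genes close to 0 in cKO. Each stretch is 300 bases around 1 RefSeq transcription start, 250 of them before it (GRCm38.p6, 5′ to 3′ on the gene's strand), with matches to the GC box GGGCGG and the CCAAT box in capitals, on either strand:
Cap1, minus strand, chr4:122886027-122886326: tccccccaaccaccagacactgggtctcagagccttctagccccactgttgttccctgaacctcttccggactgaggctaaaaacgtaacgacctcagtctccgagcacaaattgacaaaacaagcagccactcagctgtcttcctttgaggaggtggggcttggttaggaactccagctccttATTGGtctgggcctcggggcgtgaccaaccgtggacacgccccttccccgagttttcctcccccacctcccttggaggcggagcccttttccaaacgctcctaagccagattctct
Ppt1, plus strand, chr4:122835977-122836276: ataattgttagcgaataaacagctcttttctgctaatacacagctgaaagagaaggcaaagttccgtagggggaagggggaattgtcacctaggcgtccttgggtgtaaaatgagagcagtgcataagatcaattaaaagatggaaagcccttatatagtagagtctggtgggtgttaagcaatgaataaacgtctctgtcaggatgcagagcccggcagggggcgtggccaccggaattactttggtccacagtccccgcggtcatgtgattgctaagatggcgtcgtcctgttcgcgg
Rsg1, plus strand, chr4:141213706-141214005: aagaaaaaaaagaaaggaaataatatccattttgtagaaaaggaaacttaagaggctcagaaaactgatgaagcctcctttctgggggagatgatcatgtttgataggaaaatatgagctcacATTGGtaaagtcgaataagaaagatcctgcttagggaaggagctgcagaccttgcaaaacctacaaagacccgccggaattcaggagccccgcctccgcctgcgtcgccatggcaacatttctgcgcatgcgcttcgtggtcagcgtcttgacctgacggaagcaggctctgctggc
Cfap206, minus strand, chr4:34730157-34730456: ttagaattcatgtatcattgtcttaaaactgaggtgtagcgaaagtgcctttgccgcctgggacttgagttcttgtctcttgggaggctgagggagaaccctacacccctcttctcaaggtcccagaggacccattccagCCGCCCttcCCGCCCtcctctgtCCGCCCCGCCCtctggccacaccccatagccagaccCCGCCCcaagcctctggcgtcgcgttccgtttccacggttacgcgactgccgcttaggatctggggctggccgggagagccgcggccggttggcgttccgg

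By GC boxes and CpG dinucleotides, the Cfap206 promoter stood apart from the other 3. The Cfap206 promoter held 5 GC boxes, 1 pair of them overlapping, and the other 3 promoters none, while 35.7% of 32851 RefSeq promoters of this length held at least 1. A CCAAT box was found in the Cap1 and Rsg1 promoters, 1 in each, and in 37.4% of all promoters. None of the 4 held TATAAA on either strand, which 13.6% of all promoters did. They held 11 (Cap1), 13 (Ppt1), 12 (Rsg1) and 21 (Cfap206) CpG dinucleotides, against a median of 7. A match describes the letters in this window only.

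In the cKO libraries 4 of the genes were higher (Cap1, Ppt1, Iqcc and Gm10093) and 4 were lower (Hdac1, Arhgef19, Rsg1 and Cfap206), and for all 8 no cKO value fell within the control range. Of all 13296 tested genes, 5.11% did not overlap between the groups, 2.35% with higher and 2.76% with lower values in cKO. Since the genes were chosen for their differences, nothing follows from that contrast.

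Cap1 (chr4:122859048-122886076) showed the widest separation of the 3 protein-coding genes that were higher. It had 32.4, 29.0 and 33.8 CPM, scaled by the TMM method as all CPM of single genes here, in the control libraries and 107, 106, 94.99 and 90.2 CPM in the cKO libraries. The mean was 31.7 ± 2.47 (SD, n = 3) in control and 99.5 ± 8.28 (SD, n = 4) in cKO, a log2 fold change of 1.65 ± 0.13 (SE). The lowest cKO library was 2.67 times the highest control library.

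Ppt1 (chr4:122836077-122859175) had 130, 105 and 122 CPM in control and 201, 203, 227 and 203 CPM in cKO. Its means were 119 ± 12.9 (SD, n = 3) and 208 ± 12.1 (SD, n = 4), a log2 fold change of 0.81 ± 0.12 (SE), and the lowest cKO library was 1.54 times the highest control library. Cap1 and Ppt1 are convergent, and their annotated 3′ ends share 128 bases. The libraries do not record the strand, so reads from this shared stretch cannot be assigned to one of the genes by strand. The next tested genes outward showed no such separation. Mfsd2a, the transporter of lysophosphatidylcholine with docosahexaenoic acid, lies 60.8 kb from Cap1 and had a log2 fold change of 0.04 ± 0.21 (SE), with 102 to 166 CPM in control and 102 to 169 CPM in cKO. Rlf, a zinc finger gene 1621 kb on the other side of Ppt1, had one of 0.12 ± 0.27 (SE), also with overlapping groups.

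Iqcc (chr4:129615617-129619093) was the third protein-coding gene higher in cKO. The control libraries held 23.9, 21.8 and 22.7 CPM, and the cKO libraries 39.9, 35.2, 45.5 and 43.9 CPM. The means were 22.8 ± 1.03 (SD, n = 3) and 41.1 ± 4.58 (SD, n = 4), with a log2 fold change of 0.85 ± 0.15 (SE) and a lowest cKO value 1.47 times the highest control value. Both tested neighbours of Iqcc were also free of overlap, in opposite directions. Tmem234, a transmembrane protein gene 7.08 kb away, had 36.0, 38.1 and 52.5 CPM in control and 14.9, 20.2, 18.6 and 33.8 CPM in cKO. Its log2 fold change was -0.95 ± 0.27 (SE), and the highest cKO library came close to the lowest control library. Ccdc28b, 0.181 kb on the other side, was slightly higher in cKO, with 36.7 to 43.6 CPM in control, 45.5 to 51.9 CPM in cKO and a log2 fold change of 0.30 ± 0.14 (SE). Neither passed edgeR's quasi-likelihood test over all genes (Benjamini-Hochberg adjusted p = 1 for both), which called 6 genes or 0.0451%. Of the 8 described genes, Cap1, Hdac1 and Gm10093 were among those 6, while Iqcc and the other 4 were not. The edgeR exact test, used in the study, called 18 of the 13296 tested genes, all 8 among them. DESeq2 called 21, among them 7 of the 8, all but Cfap206. Because the genes were selected on this comparison, these calls are a description and no test of them.

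**Figure D1:**
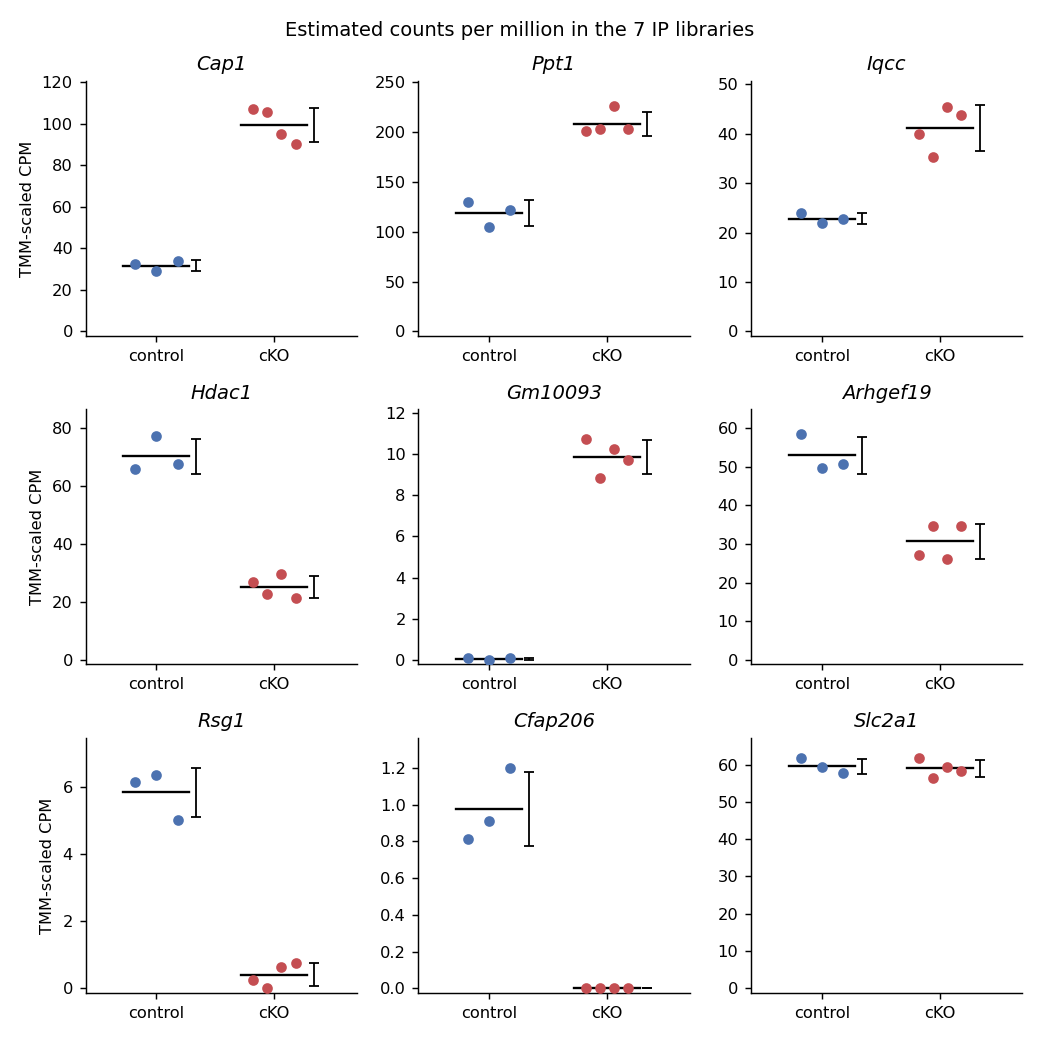
TMM-scaled CPM of the 8 genes and of Slc2a1 in each of the 3 control and 4 cKO IP libraries (points), with the group mean (line) and SD (bar beside it) on axes of their own that include 0. Cap1 lies at 29.0 to 33.8 CPM in control and 90.2 to 107 CPM in cKO, Cfap206 is at 0 in all 4 cKO libraries, and the Slc2a1 groups overlap.

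Hdac1 (chr4:129516104-129542646), 73.0 kb from Iqcc, moved the other way. It had 65.9, 77.1 and 67.6 CPM in the control libraries and 27.0, 22.6, 29.7 and 21.2 CPM in the cKO libraries. The mean was 70.2 ± 6.03 (SD, n = 3) in control and 25.1 ± 3.91 (SD, n = 4) in cKO, and the log2 fold change was -1.48 ± 0.16 (SE). The lowest control library was 2.22 times the highest cKO library.

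Gm10093 (chr17:78491565-78493541) was nearly absent from control and present in every cKO library. The estimated counts were 2.6, 0 and 2.4 in control and 173.5, 228.1, 205.5 and 131.1 in cKO, or 0.0762, 0 and 0.0962 CPM against 10.7, 8.83, 10.2 and 9.71 CPM. Summed over libraries, 5 rounded counts in control stood against 739 in cKO, a ratio of 175 after division by library totals, with an exact 95% interval of 74.5 to 539 that covers counting error only. Kallisto divides reads between transcripts of similar sequence, so the counts of this gene and of Hdac1 may depend on each other. How similar their sequences are was not computed here.

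Of the estimated counts of the pair, not corrected for length, Gm10093 held 28.4%, 28.1%, 25.6% and 31.5% in cKO libraries 1, 5, 9 and 17, a mean of 28.4% ± 2.40 (SD, n = 4). In the control libraries it held 0.100%, 0% and 0.170%, the second with a Wilson 95% upper bound of 0.181%. The shares were thus close to each other within a genotype and far apart between genotypes. With both summed before the fit, the pair had 66.0, 77.1 and 67.8 CPM in control and 37.6, 31.4, 39.8 and 30.9 CPM in cKO, still without overlap. The sum had a log2 fold change of -1.01 ± 0.15 (SE), from a mean of 70.3 ± 5.98 (SD, n = 3) to 34.9 ± 4.48 (SD, n = 4). The difference between the group means of Gm10093 amounted to 21.7% of that of Hdac1, in the other direction.

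**Figure D2:**
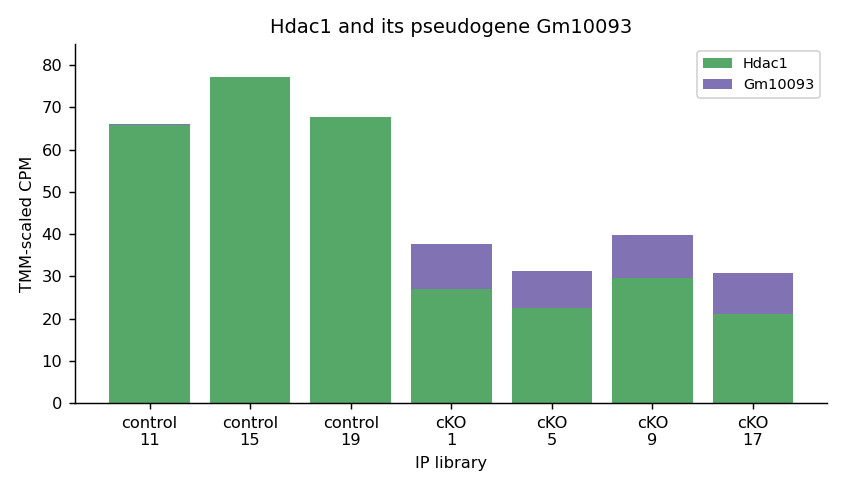
Stacked TMM-scaled CPM of Hdac1 (green) and of its pseudogene Gm10093 (purple) in each IP library, from 0. The pair sums to 66.0 to 77.1 CPM in the 3 control libraries and to 30.9 to 39.8 CPM in the 4 cKO libraries, and Gm10093 is visible only in the latter.

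Genes next to Hdac1 stayed within the overlap of the groups. Marcksl1, which encodes a MARCKS-like actin-binding protein, ends 0.123 kb from Hdac1 and had a log2 fold change of 0.27 ± 0.20 (SE), with 17.1 to 23.0 CPM in control and 19.4 to 28.1 CPM in cKO. Lck, a T cell kinase on the other side, had at most 1.604 CPM in any library and overlapping groups. Rbbp4, a histone-binding partner of HDAC1 that is itself on chromosome 4, 10.2 Mb from Slc2a1, had 53.7 to 72.7 CPM in control and 52.5 to 66.8 CPM in cKO.

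Arhgef19 (chr4:141239605-141257915) and Rsg1 (chr4:141213940-141220114) are neighbours 19.5 kb apart, and both were lower in cKO. Arhgef19 had 58.4, 49.7 and 50.9 CPM in control and 27.1, 34.8, 26.2 and 34.6 CPM in cKO. Its means were 53.0 ± 4.75 (SD, n = 3) and 30.7 ± 4.65 (SD, n = 4), a log2 fold change of -0.79 ± 0.16 (SE), and the lowest control library was 1.43 times the highest cKO library. This was the narrowest separation of the 8.

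Rsg1 was low in control and almost at 0 in cKO. The estimated counts were 242.2, 175 and 104.1 in control and 3.8, 0, 12.8 and 10 in cKO, which is 6.15, 6.36 and 5.00 CPM against 0.247, 0, 0.646 and 0.741 CPM. Summed and rounded, 521 counts stood against 27, a ratio of 16.3 after the same division (exact 95% interval 11.1 to 25.03, counting error only). The outer neighbours did not separate. Fbxo42, a ubiquitin ligase subunit gene 9.88 kb from Rsg1, had a log2 fold change of -0.09 ± 0.21 (SE), and Zbtb17, which encodes the transcription factor MIZ1, 187 kb from Arhgef19, had one of 0.20 ± 0.29 (SE).

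Cfap206 (chr4:34688574-34730263) had 31.5, 25 and 25 estimated counts in control, or 0.813, 0.909 and 1.202 CPM, and 0 in each of the 4 cKO libraries. Against a floor of 3 counts in each cKO library, which averaged 0.168 CPM, the level was at least 5.80-fold lower in cKO. Its neighbours Slc35a1, the CMP-sialic acid transporter gene 0.461 kb away, and Smim8, a small membrane protein gene 38.4 kb away, had log2 fold changes of 0.03 ± 0.36 and -0.05 ± 0.14 (SE), with overlapping groups.

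All 8 genes passed the filter, which asked for about 10 counts in at least 3 libraries, but not through the same libraries. Cfap206 passed only through the control libraries and Gm10093 only through the cKO libraries, and Rsg1 was over the minimum in 3 control and 2 cKO libraries. A gene that enters through 1 group alone had to differ.

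Other ciliary transcripts were measured beside Rsg1 and Cfap206. Foxj1, the transcription factor of motile ciliated cells, had 27, 18 and 18 counts in control and 7, 6, 0 and 0 in cKO, without overlap. The 5 ependymal markers, of which Tmem212 was at 0 in all 7 libraries and Ccdc153 in all but cKO library 17, summed to 2.04 to 3.84 CPM in control and 0.910 to 4.93 CPM in cKO. Of the 3 that passed the filter, Foxj1 alone separated the groups. Foxj1 passed only through the control libraries, as Cfap206 did, so it too had to differ. The part of ependymal RNA in the Rsg1 and Cfap206 values was not tested.

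Of 13 tested genes for planar polarity effectors and cilia, out of 19 listed, edgeR's quasi-likelihood test called 0 in either direction, and 0 had an unadjusted p under 0.05, as 2.58% of all tested genes did. The edgeR exact test and DESeq2 also called 0. The list median was -0.18 on the log2 scale, against 0.01 over all tested genes, and 2 genes, Foxj1 and the radial spoke gene Rsph9 (-0.36 ± 0.19, SE), did not overlap between the groups. Foxj1, which passed the filter through the control libraries alone, had the largest difference, a log2 fold change of -2.09 ± 1.23 (SE). Cfap61, another axonemal protein gene, had the next, -0.72 ± 0.96 (SE).

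Lists for Hdac1, Cap1 and Ppt1 were measured as well. Of all tested genes, the quasi-likelihood test called 0.0451%, 2.58% had an unadjusted p under 0.05 and 5.11% did not overlap. With so few genes called, 0 calls in a short list say little. Without overlap were 1 of 19 HDAC1 complex genes, 1 of 15 actin turnover genes and 2 of 18 lysosomal storage and depalmitoylation genes. Of 19 HDAC1 complex genes, all tested, 0 were called by any of the 3 tests and 1 had an unadjusted p under 0.05, with a median log2 fold change of -0.04. The corepressor gene Sin3a had the largest difference, from 15.7 to 17.6 CPM in control to 18.3 to 24.5 CPM in cKO, a log2 fold change of 0.41 ± 0.18 (SE). The log2 fold changes of the list ran from -0.27 to 0.41. Mbd2, a methyl-CpG binding protein gene, came next at 0.35 ± 0.28 (SE).

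Of 15 actin turnover genes, 0 were called by the 3 tests and 1 had an unadjusted p under 0.05, with a median log2 fold change of -0.03. Pfn2, a neuronal profilin, was the furthest from 0 at 0.43 ± 0.16 (SE), and Actb, cytoplasmic actin, followed at 0.26 ± 0.28 (SE). Of 18 genes for lysosomal storage and depalmitoylation, 0 were called by the 3 tests and 1, the ceroid lipofuscinosis gene Cln8, had an unadjusted p under 0.05, with a median of 0.07. Cln8 had 37.4 to 40.1 CPM in control and 42.5 to 61.6 CPM in cKO. Ppt2, the paralog of Ppt1, also did not overlap, with 11.3 to 13.7 CPM in control and 9.79 to 10.9 CPM in cKO, lower where Ppt1 was higher. Atp13a2, a lysosomal polyamine transporter gene that is also on chromosome 4, had the largest log2 fold change, 0.44 ± 0.27 (SE), and Kctd7 the next, 0.40 ± 0.20 (SE).

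The members were then set against the other genes of chromosome 4. The 6 tested genes with starts within 200 kb of that of Slc2a1 all lie towards the end of the chromosome. Of these, 2 did not overlap between the groups, both higher in cKO. Over all tested genes the share was 5.11%. Within 500 kb of Slc2a1, a window also chosen after the data were seen, it was the same 2 genes of 11. These were Zfp691, a zinc finger gene with 3.78 to 6.92 CPM in control and 7.97 to 9.86 CPM in cKO, and Svbp, whose product is the partner of the tubulin carboxypeptidases vasohibins, with 28.8 to 38.9 CPM and 45.7 to 62.5 CPM. Their log2 fold changes were 0.71 ± 0.31 and 0.65 ± 0.17 (SE), and neither passed the quasi-likelihood test over all genes (adjusted p = 1 for both).

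Without the 8 genes and Slc2a1, 4 of 90 tested genes (4.44%) within 5 Mb of Slc2a1 did not overlap between the groups. From 5 to 10 Mb it was 4 of 58 (6.90%), from 10 to 25 Mb 26 of 246 (10.6%), and beyond 25 Mb 15 of 384 (3.91%). On all other chromosomes it was 596 of 11964 (4.98%). The share did not fall steadily with distance, since it was highest from 10 to 25 Mb, where Hdac1, Iqcc, Arhgef19 and Rsg1 also lie. Without control library 11 it was higher within 5 Mb (16.1%) than from 10 to 25 Mb (15.4%). The median absolute log2 fold change there was 0.16, as on the other chromosomes. By an unadjusted p under 0.05, 18 genes (7.32%) stood out there, against 2.44% on other chromosomes. These counts share 7 libraries and neighbouring genes are not independent, so they carry no test.

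The genes without overlap from 10 to 25 Mb lay mostly towards the end of the chromosome, with 21 of 177 genes (11.9%) there and 5 of 69 (7.25%) on the other side. Taken as a whole and without the members, 6.29% of 779 tested genes of chromosome 4 did not overlap. That was the second share among 20 chromosomes with at least 100 tested genes, after chromosome 14 (6.998%), with chromosome 12 the last (3.63%).

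**Figure D3:**
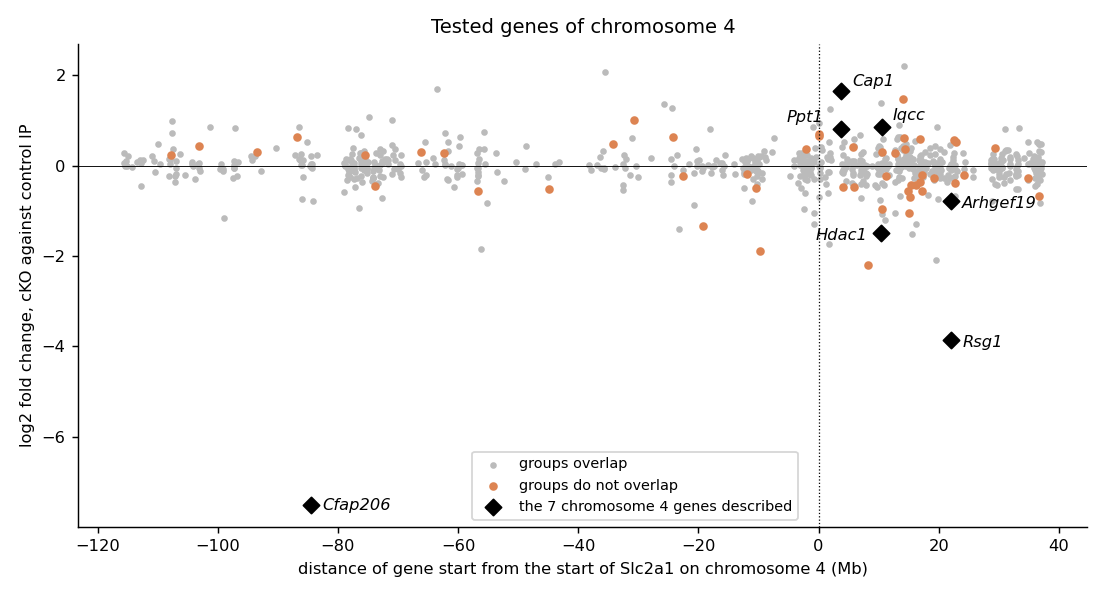
Log2 fold change of each tested chromosome 4 gene against the distance of its start from that of Slc2a1 (Mb, dotted line at 0), with genes whose groups do not overlap in orange and the 7 described genes as black diamonds. Cap1 and Ppt1 lie 3.75 and 3.73 Mb from Slc2a1 and Cfap206 84.4 Mb to the other side, and the fitted value of Cfap206 is no bound because all its cKO counts are 0.

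**Figure D4:**
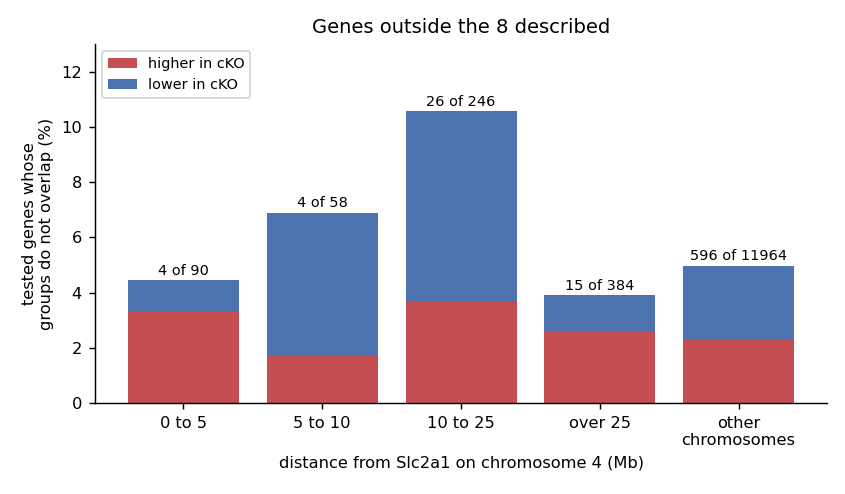
Share of tested genes, in percent, whose control and cKO values do not overlap, by distance from Slc2a1 on chromosome 4 and on other chromosomes, without the 8 described genes and Slc2a1. Red marks higher and blue lower values in cKO, and the share is 10.6% from 10 to 25 Mb and 4.98% on other chromosomes.

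The other chromosome 4 genes without overlap were ranked by fold change, and the first 10 are given here. The 4 with the largest, Gja4 (connexin 37 of arteries), Ttc39a, Cd164l2 and Efcab7, had log2 fold changes of -2.20 ± 1.24, -1.89 ± 1.26, 1.47 ± 0.41 and -1.35 ± 0.95 (SE), and none exceeded 9.78 CPM in a library. Gja4 and Ttc39a passed the filter only through the control libraries, so they had to differ. Both are among the genes without overlap counted from 5 to 10 Mb. Cd164l2 had 3.66, 1.45 and 3.41 CPM in control and 7.47, 7.78, 6.46 and 9.78 CPM in cKO. Cep85, a centrosomal protein gene, and Hacd4 followed with -1.05 ± 0.33 and 1.00 ± 0.53 (SE). Besides Tmem234 and Zfp691, the rest were Extl1, a glycosyltransferase gene of heparan sulfate synthesis, with 42.6 to 54.4 CPM in control and 22.5 to 34.1 CPM in cKO, and Vwa1, which encodes an extracellular matrix protein, with 57.2 to 88.0 and 35.4 to 49.7 CPM. Adjusted p was 1 for each of the 10 in edgeR's quasi-likelihood test.

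Other genes without overlap were also counted around the members, beside the 5.11% of all tested genes. Values in parentheses are log2 fold changes. Within 500 kb of Cap1 and Ppt1, 1 of 9 other tested genes did not overlap (Heyl, a Notch target gene, -0.48 ± 0.23, SE), within 500 kb of Hdac1 2 of 21, of Iqcc 2 of 22, of Arhgef19 and Rsg1 1 of 14 (Plekhm2, a lysosomal transport gene, 0.56 ± 0.18, SE), and of Cfap206 0 of 7. Those near Hdac1 and Iqcc were Tmem234 and Ccdc28b.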

How the data were processed

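RNA from cortical TRAP IP libraries of male mice was made into cDNA with Smart-seq2 and sequenced single-end. Per the labels and the methods, the authors trimmed reads with cutadapt 1.15, assigned them to GENCODE vM17 transcripts (GRCm38) with kallisto 0.44.0 and deposited estimated counts for each gene symbol, without normalization. A read that fits several transcripts is divided among them by kallisto.

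The table has 18 columns. The 7 that the source data of the paper name by genotype were used, and 11 were not used in any step, so the planned comparison of input libraries was not run. No 2 libraries of a group agreed within counting noise (lowest chi-square per degree of freedom 32.8).

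Estimated counts were rounded, filtered with filterByExpr and scaled by TMM. Log2 fold changes and the calls over all genes come from edgeR 4.0.16 (quasi-likelihood test, R 4.3.3). Genotype was the single term, and p-values were adjusted by Benjamini-Hochberg with a threshold of 0.05. SEs were taken from the F statistic. The fit was tested on simulated data. Each library is 1 animal per the labels. Non-overlap means that every cKO value lies above, or below, every control value. Alternatives were edgeR's exact test (used in the study), DESeq2 1.42.0, RLE or library size scaling, other filters and leaving out each library. One planned gene list is not reported here. Members and lists were chosen with earlier results of these data known. Named were the members, Slc2a1, the nearest tested gene on each side, up to 10 other chromosome 4 genes by fold change among those without overlap, and 2 genes per list. Svbp, Rbbp4, Cln8, Ppt2, Rsph9, Heyl and Plekhm2, the windows of 200 and 500 kb, the split by side and the unadjusted p shares were chosen after the data were seen. Positions and promoters are from RefSeq (GRCm38.p6), matched for 12425 tested genes by symbol and 326 by synonym, and promoters were found for 6 members, not for Hdac1 or Gm10093. Intervals and floors cover counting error only.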

Additional observations from a re-analysis of the deposited data

Results flagged for a closer look

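Ppt1 in cKO library 9 stood apart from the other cKO libraries. It had 227 CPM there, while the other 3 had 201 to 203 CPM, and the gap was 0.922 of the range of the 4 values. Values of the 4 cKO libraries were examined for 27 genes, the members and the other named chromosome 4 genes together with Slc2a1, and this was the 1 that stood out. Chance gives about 1 in 20, or 1.35 among 27. The highest control library had 130 CPM.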

How the results depend on the processing

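All 8 members kept their direction and stayed without overlap under RLE and library size scaling, without a filter and with DESeq2. Leaving out 1 library cannot make separate groups overlap, so only the range of its values is given. With at least 1 CPM in 3 libraries this held for 7, and Cfap206 was removed by that filter. The filters, scalings and tools moved no member's log2 fold change by more than its spread between replicates, except Cfap206 (-6.60 with DESeq2, against -7.51 in the fit reported), for which neither is a bound. Without 1 library, the log2 fold changes ran from 1.59 to 1.69 for Cap1, 0.72 to 0.88 for Ppt1, 0.79 to 0.92 for Iqcc, -1.58 to -1.41 for Hdac1, -0.86 to -0.71 for Arhgef19, -4.32 to -3.41 for Rsg1 and 6.78 to 7.67 for Gm10093. The summed Hdac1 and Gm10093 ran from -1.08 to -0.94. The quasi-likelihood test called 6 genes, 4 to 6 without 1 library, while the exact test called 18 and DESeq2 21. The cause was not tested. The share of genes without overlap was 4.44% within 5 Mb and 7.37% to 16.1% without 1 library, 8.47% to 13.3% from 5 to 10 Mb, 14.5% to 20.4% from 10 to 25 Mb, 6.51% to 8.85% beyond 25 Mb and 8.38% to 10.6% on other chromosomes, since fewer libraries overlap less often by construction. With library size scaling the share from 10 to 25 Mb was 8.13%, against 4.43% on other chromosomes. No list median passed 0.29 in size without 1 library. No scaling moved the median of all genes by more than 0.0101. No paired analysis was possible because the columns carry no replicate numbers. At this depth Gm10093, Rsg1 and Cfap206 rest on few counts in 1 group.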
